A study of Mus musculus with 16 samples.

Results

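H3K4me3 domains newly broadened in the mutant were 1073 mutant H3K4me3 peaks on chromosomes 1 to 19. They were chosen by 2 widths: the mutant peak was wider than 10000 bp and overlapped at least 1 control H3K4me3 peak by 1 bp or more, and every control peak that it overlapped was 5000 bp wide or less. The mutant list held 83290 H3K4me3 peaks on these chromosomes, of which 5497 were wider than 10000 bp and are called broad below. The newly broadened domains made up 19.5% of those broad peaks. Of the remaining broad peaks, 1735 overlapped a control peak whose greatest width lay between 5 and 10 kb. A further 2582 overlapped a control peak that was already wider than 10 kb (retained broad domains), and 107 overlapped no control peak.

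The embryos were mouse embryos at the late 2-cell stage, taken 36 h after fertilization and profiled for H3K4me3 and H3K27ac by ULI-NChIP-seq, in which native chromatin is cut with micrococcal nuclease and immunoprecipitated from very few cells. Zygotes had been injected with H2O (control) or with Hdac1 mutant mRNA (mutant). No genetic change was described for either group, so the embryo's own Hdac1 was, per the labels, the same in both. The 16 libraries formed 8 groups of 2, an immunoprecipitation and an input group for each mark in each condition. Each of the 4 immunoprecipitation groups had a single deposited peak list with positions only. The mutation in Hdac1, the mouse strain and the number of embryos per library are not given in the sources used here, and an injection control with another mRNA was not analysed here. Peak lists hold no expression values, so neither the injected mRNA nor the stage could be checked at the RNA level. Control H3K4me3 peaks lay at 61 of 61 listed genes of the splicing and transcription machinery, 23 of 31 listed 2-cell genes and 19 of 35 listed genes of differentiated tissues, against 59, 24 and 21 in the mutant. Because each condition is represented by 1 list per mark, no value has a replicate error and no test was made. Intervals are 95% Wilson intervals for shares and rank-based 95% intervals for medians, cover counting error only, and treat domains as independent. Sequencing depth is unknown from these lists.

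H3K4me3 is a methylation of histone H3 deposited by the SET1 and MLL (KMT2) complexes, typically as a short peak at promoters rich in CpG dinucleotides. Mouse oocytes carry wide H3K4me3 domains, which are removed from much of the genome around zygotic genome activation in the 2-cell embryo, when promoters take up H3K4me3 in shorter form. Active promoters and enhancers usually carry H3K27ac, placed by acetyltransferases such as CBP and p300. HDAC1 is a histone deacetylase of the NuRD, Sin3 and CoREST corepressor complexes, and takes off such acetyl groups.

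Upstream promoter sequences are shown for 7 genes at domains described below, because the CpG content that usually accompanies H3K4me3 spans a wide range among them. Arf1 marks the widest domain, Rusf1 is among the 10 widest, Sox2 and Gtf2b belong to the gene lists, Gstm5 and Saa2 lie at domains with the longest H3K27ac gains, and Narf lies at a domain with one of the longest H3K27ac losses. Each run is the 250 bases before a listed gene start, 5′ to 3′ on the gene's strand, from RefSeq on GRCm38.p6. Capitals mark CpG (the letters CG, which read the same on both strands).
Arf1 (chr11:59228268-59228517, minus strand): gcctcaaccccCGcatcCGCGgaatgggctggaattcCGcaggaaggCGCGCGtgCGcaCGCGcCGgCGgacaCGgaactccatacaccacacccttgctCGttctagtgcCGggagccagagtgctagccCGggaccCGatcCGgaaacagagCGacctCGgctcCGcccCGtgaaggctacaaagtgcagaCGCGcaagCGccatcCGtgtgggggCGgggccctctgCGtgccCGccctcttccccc
Rusf1 (chr7:128298132-128298381, minus strand): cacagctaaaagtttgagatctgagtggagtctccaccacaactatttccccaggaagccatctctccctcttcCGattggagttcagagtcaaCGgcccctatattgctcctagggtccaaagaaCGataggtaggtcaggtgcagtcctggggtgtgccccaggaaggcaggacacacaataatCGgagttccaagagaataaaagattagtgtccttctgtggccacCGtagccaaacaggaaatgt
Sox2 (chr3:34649745-34649994, plus strand): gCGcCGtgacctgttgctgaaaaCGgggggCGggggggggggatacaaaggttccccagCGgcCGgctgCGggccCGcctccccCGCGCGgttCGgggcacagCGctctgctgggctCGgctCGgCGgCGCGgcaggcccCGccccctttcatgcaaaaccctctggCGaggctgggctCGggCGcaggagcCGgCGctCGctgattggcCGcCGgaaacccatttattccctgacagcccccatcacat
Gtf2b (chr3:142764997-142765246, plus strand): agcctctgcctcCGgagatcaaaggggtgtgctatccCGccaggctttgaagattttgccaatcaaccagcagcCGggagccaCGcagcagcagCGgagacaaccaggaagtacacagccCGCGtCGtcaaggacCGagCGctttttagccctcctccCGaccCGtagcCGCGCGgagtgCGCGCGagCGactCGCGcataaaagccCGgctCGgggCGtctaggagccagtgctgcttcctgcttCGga
Gstm5 (chr3:107895604-107895853, plus strand): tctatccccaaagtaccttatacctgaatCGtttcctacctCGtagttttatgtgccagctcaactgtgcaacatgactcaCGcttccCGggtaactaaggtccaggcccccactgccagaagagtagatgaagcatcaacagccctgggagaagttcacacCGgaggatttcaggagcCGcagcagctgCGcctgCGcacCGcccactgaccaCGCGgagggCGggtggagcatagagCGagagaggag
Saa2 (chr7:46751583-46751832, plus strand): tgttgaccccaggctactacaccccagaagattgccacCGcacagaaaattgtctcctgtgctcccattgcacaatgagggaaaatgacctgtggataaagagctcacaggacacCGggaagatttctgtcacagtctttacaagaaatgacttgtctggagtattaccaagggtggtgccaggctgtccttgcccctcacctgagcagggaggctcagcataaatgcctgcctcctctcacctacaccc
Narf (chr11:121236986-121237235, plus strand): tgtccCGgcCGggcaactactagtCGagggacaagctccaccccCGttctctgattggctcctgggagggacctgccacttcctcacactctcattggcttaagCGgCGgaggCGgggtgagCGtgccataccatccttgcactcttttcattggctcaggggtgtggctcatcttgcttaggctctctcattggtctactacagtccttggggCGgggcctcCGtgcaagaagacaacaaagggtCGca
The number of CpGs in these runs was 29 for Arf1, 27 for Sox2 and 25 for Gtf2b. It was 13 for Gstm5 and 11 for Narf, and 5 for Rusf1 and 2 for Saa2. Promoters dense and poor in CpG therefore both lay at newly broadened domains.

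Over all 629 listed promoters (300 bases, from 250 before to 50 after the start) of 528 genes at the newly broadened domains, the median was 21 CpGs (interval 19 to 22). The same median, 21, was found at retained broad domains and at all broad mutant domains, against 14 over all 20085 listed protein-coding promoters. At least 1 CpG was present in 99.8% of the promoters at newly broadened domains and in 95.6% of all listed promoters. A promoter was called CpG-rich when at least 50% of its bases were G or C and its observed over expected CpG ratio was at least 0.6. CpG-rich promoters made up 66.0% (62.2 to 69.6) at newly broadened domains and 67.3% (65.4 to 69.1) at retained broad domains, against 46.5% of all listed promoters. The share at newly broadened domains thus lay inside the interval of the retained ones.

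The widths below chose the domains and are given as a description. The domains had a median width of 12059 bp, with quartiles of 10923 and 14111 bp and a maximum of 33238 bp. Of the 1073, 196 (18.3%) were wider than 15 kb and 40 were wider than 20 kb. They were shorter than the retained broad domains, whose median was 15053 bp and of which 50.3% exceeded 15 kb. The widest control peak inside a domain had a median width of 3502 bp, and the mutant peak was a median 3.88 times as wide. Together the domains spanned 13.99 Mb, of which control peaks covered 5.06 Mb, or 36.2%, and 8.93 Mb lay under the mutant peak alone. The median share of a domain under control peaks was 35.1%, and 69 domains (6.43%) were covered for less than 10%.

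**Figure D1:**
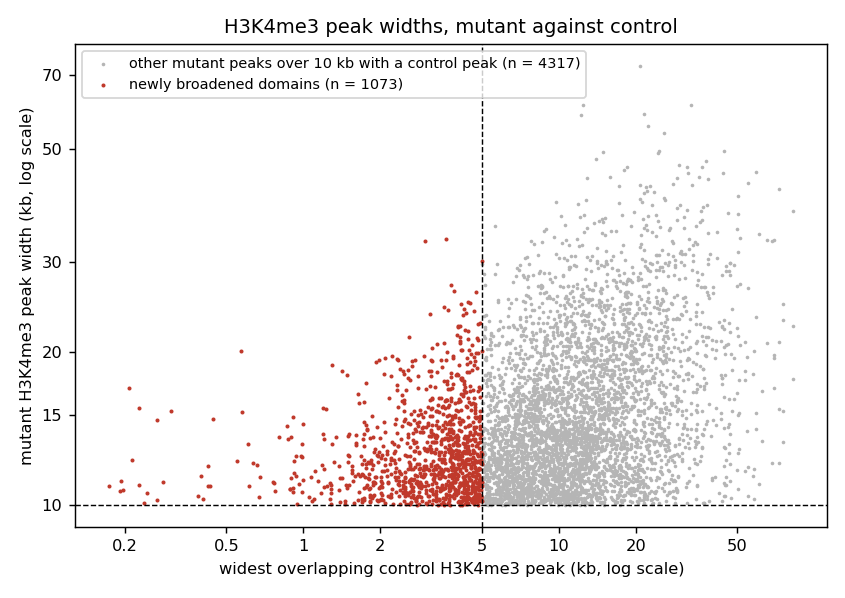
Width of each broad mutant H3K4me3 peak that overlapped a control peak (y axis, kb, log scale) against the widest control peak it overlapped (x axis, kb, log scale), with the 1073 newly broadened domains in red, the other broad peaks in grey and dashed lines at the limits of 5 and 10 kb. The red points crowd against both limits with no gap to the grey ones, and reach 33238 bp.

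In most domains the control list already held several separate peaks. A single control peak was present in 391 domains (36.4%), 2 in 400, 3 in 224 and 4 or more in 58. The median share under control peaks was 23.4% with 1 control peak, 40.1% with 2 and 48.8% with 3. In the 682 domains with 2 or more control peaks, the largest gap between them had a median of 2393 bp and a minimum of 690 bp, and was under 1000 bp in 129 (18.9%). The outermost control peaks spanned more than 10 kb in 306 domains (28.5%), in separate pieces of 5000 bp or less. Over all domains, 71.8% of the sequence not under a control peak lay beyond the outermost control peaks and 28.2% lay between them. Of the 391 domains with 1 control peak, 243 (62.1%) extended past it by 1000 bp or more at both ends. A control peak reached past the end of the mutant domain in 342 (31.9%).

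At the limits of the choice, the 3 narrowest domains were 10001, 10001 and 10002 bp wide, the first 37230 bp from Ndfip1, the others at Fgfr2 and Nedd4. The widest mutant peaks that met the control conditions but not the mutant limit were 9998, 9997 and 9989 bp wide. The 3 domains with the widest control peaks had control peaks of 4995, 4994 and 4993 bp, whereas the broad mutant peaks nearest above the control limit had 5006, 5009 and 5012 bp. The domains therefore form the end of a continuous range of widths.

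The opposite change was counted in the same way. Of 4070 control H3K4me3 peaks wider than 10 kb, 343 (8.43%) overlapped mutant peaks that were all 5000 bp wide or less. Newly broadened domains were 3.13 times as many as these, whereas all broad peaks were 1.35 times as many in the mutant as in the control list. On the X chromosome, which was not used in the choice, 14 of 115 broad mutant peaks met the same width conditions (12.2%) and 36 of 196 broad control peaks met the opposite ones (18.4%), so there the order of the counts was the other way.

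The widest domain, 33238 bp at chr11:59212368-59245605, lay over the start of Arf1, which encodes a small GTPase of Golgi vesicle traffic. In the control it held 3 H3K4me3 peaks of 3367, 3606 and 3348 bp. The next, 33041 bp at chr14:21739953-21772993, covered Dusp13, a dual-specificity phosphatase, and Samd8, an enzyme of sphingolipid synthesis, and held 4 control peaks of 1289 to 2982 bp. A domain of 26987 bp at chr10:62212467-62239453 covered the start of Tspan15, a tetraspanin that binds the protease ADAM10, and held 7 control peaks, the largest number found, of 613 to 3800 bp. Each of these was thus 1 unbroken mutant peak where the control had short, spaced peaks.

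The other domains of the 10 widest spanned 24439 to 30163 bp. They lay at Abhd12 and Gins1 (a subunit of the replicative helicase), at Ess2, Gsc2 and Slc25a1 (the mitochondrial citrate carrier), and at Dpm3, Efna1 (an ephrin ligand) and Slc50a1. They also lay inside Vwa3b, at Papolg, a poly(A) polymerase, near Npff, a neuropeptide gene, and at Rusf1. Abhd12, Gins1 and Npff had no listed start and were placed by a gene end. The widest control peak in these 7 domains was between 3554 and 4992 bp.

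**Figure D2:**
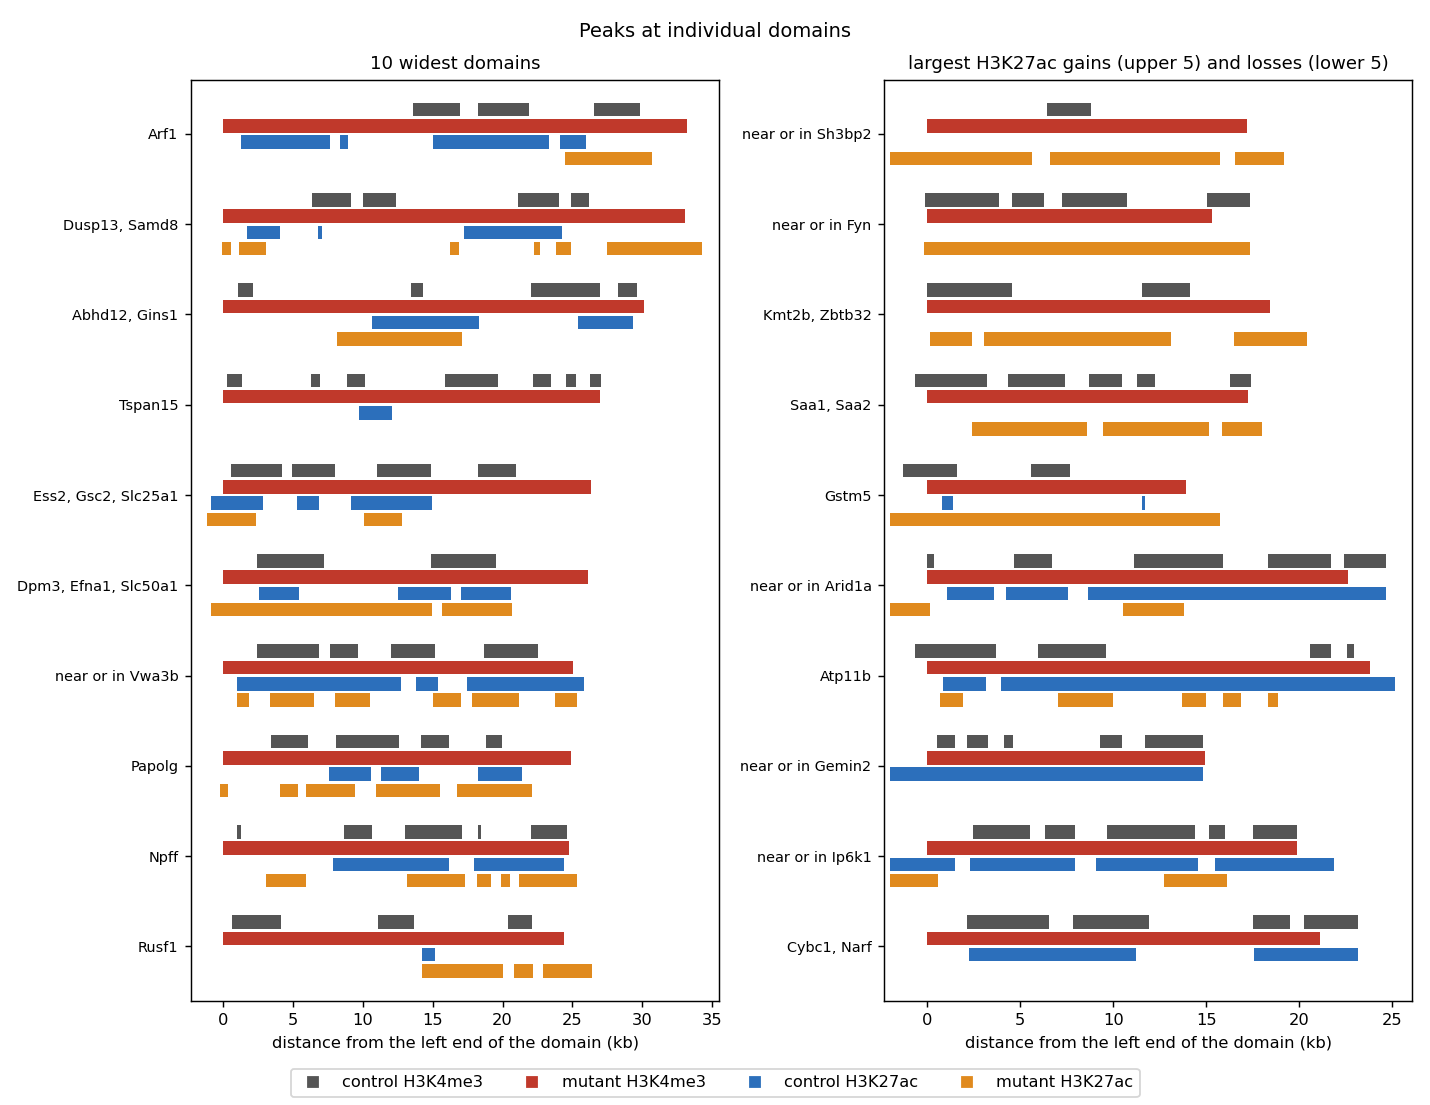
Peaks of the 4 lists at the 10 widest domains (left) and at the 5 with the largest H3K27ac gain and the 5 with the largest loss (right), each row 1 domain, with distance from its left end in kb on the x axis and peaks cut 2 kb beyond the domain. By the choice of widths, each row has 1 long mutant H3K4me3 bar (red) over shorter control bars (grey). The H3K27ac bars (blue control, orange mutant) differ in both directions.

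The domains with the least control H3K4me3 included 1 within the gene body of Kdm2b, a CpG-binding demethylase linked to Polycomb complexes. Its 10288 bp overlapped a control peak of 2773 bp by a single base, or 0.00972% of its length. A domain of 16999 bp inside Lcmt1, a methyltransferase of the phosphatase PP2A, held only a control peak of 208 bp, and no H3K27ac peak in either condition. At the other end, the domains at Krt222, Micall1 and Auh were covered for 85.8%, 85.3% and 85.3% by 3 control peaks each. The choice by width therefore put together almost unmarked and almost fully marked control stretches.

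H3K27ac was not used to choose the domains. An H3K27ac peak was present in 747 of the 1073 domains in the control (69.6%, interval 66.8 to 72.3) and in 887 in the mutant (82.7%, 80.3 to 84.8). Over all 5497 broad mutant domains the shares were 86.9% in the control and 89.6% in the mutant. The median share of a newly broadened domain under H3K27ac peaks was 14.8% (11.7 to 18.9) in the control and 29.7% (27.1 to 32.3) in the mutant. With peaks less than 1000 bp apart merged in every list, which gave 1180 domains by the same limits, the medians were 9.15% and 26.9%. Over all broad mutant domains the medians went the other way, 66.7% in the control and 49.1% in the mutant.

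Domain by domain the mark differed in both directions. Both lists had H3K27ac in 650 domains, the control list alone in 97 (9.04%), the mutant list alone in 237 (22.1%), and neither in 89 (8.29%). The covered length was longer in the mutant by any amount in 593 domains (55.3%) and shorter in 390 (36.3%). For a larger difference, the length was compared after 500 bp was added to both conditions, and a ratio of 2 or more was counted. H3K27ac was at least 2-fold longer in the mutant in 382 domains (35.6%, 32.8 to 38.5) and at least 2-fold shorter in 185 (17.2%, 15.1 to 19.6). Over all broad mutant domains 17.2% were at least 2-fold longer and 21.4% at least 2-fold shorter. The share with longer H3K27ac was therefore above that of all broad domains, and the share with shorter H3K27ac was below it. Covered length cannot exceed the domain, so a domain mostly covered in the control could not be 2-fold longer in the mutant. The control medians differed (14.8% and 66.7%), and their part in these shares was not tested. Of broad mutant domains without a control peak, 42.1% were at least 2-fold longer and 18.7% at least 2-fold shorter. For mutant peaks of 5 to 10 kb with control peaks of 5 kb or less, the shares were 29.2% and 19.3%. In sum, H3K27ac covered 3.895 Mb of the newly broadened domains in the control and 4.86 Mb in the mutant, a ratio of 1.25.

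The same ratio was 0.75 for retained broad domains, 0.645 for the 343 domains of the opposite change, and 0.827 for all broad mutant domains. It was 0.89 for broad mutant domains with a control peak of 5 to 10 kb and 2.00 for the 107 without a control peak. In 3 classes of increasing mutant width the ratio was 1.26, 1.18 and 1.31 for newly broadened domains and 0.75 in each for retained ones. Mutant peaks of 5 to 10 kb whose control peaks were 5 kb wide or less had a ratio of 1.12. Their median H3K27ac share was 5.35% in the control and 17.5% in the mutant. For the 107 broad domains without a control peak it was 1.78% and 13.9%. Both sets thus had the direction of the newly broadened domains. Over the autosomes the mutant H3K27ac list held more peaks (114737 against 73320) but fewer wider than 10 kb (2636 against 5827). The part of these list-wide differences in the values above was not tested.

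**Figure D3:**
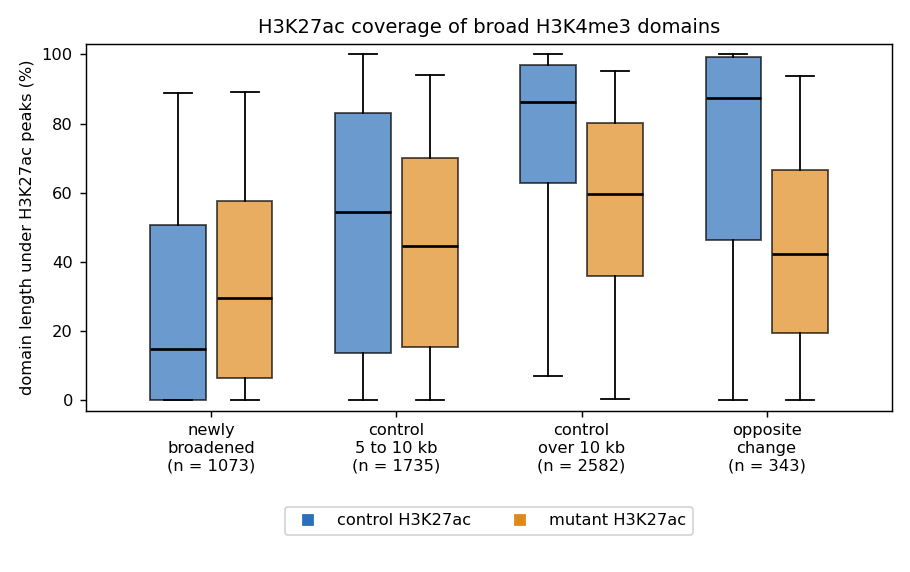
Share of domain length under H3K27ac peaks (y axis, percent) in control (blue) and mutant (orange) lists for newly broadened domains, broad mutant domains with a control peak of 5 to 10 kb or over 10 kb, and the opposite change; lines are medians, boxes quartiles, whiskers the 5th and 95th percentiles over domains. The median is higher in the mutant for newly broadened domains (14.8% and 29.7%) and lower in the mutant for the other 3 sets drawn.

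The length ratio was larger where the control had less H3K4me3. This split uses control H3K4me3 peaks, which also chose the domains, and is a description. In domains with 1 control peak the median H3K27ac share was 6.07% in the control and 23.5% in the mutant, with a length ratio of 1.58. With 2 or more control peaks the medians were 22.7% and 31.9%, and the ratio 1.14. Where control H3K4me3 covered under 20% of the domain the ratio was 1.65, and where it covered 50% or more it was 0.978. In the former, H3K27ac covered 16.2% of the length in the control and 26.7% in the mutant. In the latter, it covered 43.7% and 42.7%. Both control and mutant H3K27ac were thus lower where the ratio was higher. Within the sequence under H3K4me3 in both conditions, H3K27ac covered 39.7% in the control and 41.8% in the mutant. In the sequence under the mutant H3K4me3 peak alone, it covered 21.1% in the control and 30.7% in the mutant. Domains at and away from gene starts had similar ratios, 1.21 and 1.29.

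The 5 longest differences toward more H3K27ac were at domains with little or none in the control, which a ranking by gained length favours. A domain of 17196 bp that held the outer 5′ end of Sh3bp2, an adaptor protein gene, but none of its listed starts, had 0 bp in the control and 15382 bp in the mutant. A domain of 15325 bp that lay 15290 bp from Fyn, a Src-family kinase gene, was under H3K27ac for none of its length in the control and for all 15325 bp in the mutant. The domain at Kmt2b, which encodes an H3K4 methyltransferase of the MLL family, and Zbtb32 had 0 and 14247 bp. Saa1 and Saa2, acute-phase proteins, shared a domain with 0 and 13327 bp, and Gstm5, a glutathione S-transferase, had 764 and 13886 bp. Of the promoters shown above, those of Saa2 and Gstm5 thus had 2 and 13 CpGs and lay at domains with this difference alike.

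The 5 longest differences toward less H3K27ac were at domains largely covered in the control, which a ranking by lost length favours. The domain in the body of Arid1a, a subunit of BAF chromatin remodellers, had 19802 bp in the control and 3419 bp in the mutant. At Atp11b, a phospholipid flippase, the lengths were 22144 and 6996 bp. A domain that overlapped the Gemin2 gene, an SMN complex subunit, had 14842 and 0 bp, and 1 in Ip6k1, an inositol phosphate kinase, had 17063 and 3983 bp. At Cybc1 and Narf they were 12535 and 0 bp. Longer H3K4me3 peaks thus also lay where H3K27ac was shorter in the mutant list.

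The 10 widest domains were also divided. H3K27ac was shorter in the mutant in 6 of them and longer in 4. Over all newly broadened domains the order was the other way. H3K27ac was shorter in 36.3% and longer in 55.3% of all of them, and in 31.6% and 64.3% of those wider than 15 kb. At Arf1 it covered 6225 bp in the mutant against 17038 bp in the control, and at Tspan15 0 bp against 2411 bp. It was also shorter in Vwa3b (13284 against 20875 bp), at Ess2, Gsc2 and Slc25a1 (5030 against 10222 bp), at Abhd12 and Gins1 (8980 against 11604 bp) and near Npff (12191 against 14774 bp). It was longer at Rusf1 (8674 against 861 bp), at Dpm3, Efna1 and Slc50a1 (19979 against 10303 bp), at Papolg (15096 against 8911 bp) and at Dusp13 and Samd8 (10266 against 9575 bp). By the 2-fold limit, 1 of the 10 had more (Rusf1), 2 had less (Arf1 and Tspan15) and 7 lay between.

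A domain was placed at a gene when a protein-coding gene start lay in it or within 2000 bp. For genes with no listed start and strand, either gene end was used. By this count 560 newly broadened domains (52.2%, 49.2 to 55.2) lay at a gene, against 62.6% of all broad mutant domains, 69.9% of retained ones and 35.3% of the opposite change. A further 188 (17.5%) lay in gene bodies, and 325 (30.3%) lay between genes at a median of 20301 bp from the nearest. A single gene was present at 440, 2 genes at 108, and 3 or more at 12. In all, 689 of 20665 protein-coding genes (3.33%) lay at a newly broadened domain, 528 by a listed start and 161 by a gene end. The corresponding count for retained broad domains was 2545 genes (12.3%).

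In 297 domains with a single listed start the peaks could be oriented by the gene. The mutant domain reached a median of 5602 bp upstream and 7107 bp downstream of the start. The control peaks in it covered a median of 1803 bp upstream and 2323 bp downstream. The start itself was under a control peak in 278 (93.6%, 90.2 to 95.9). Of the sequence under the mutant peak alone, 55.0% lay downstream, against 56.6% at retained broad domains. The H3K4me3 contrast around the starts follows from the widths that chose the domains and is a description. At 2.5 kb upstream, 23.9% of the starts had control and 81.5% mutant H3K4me3, and at 2.5 kb downstream 33.7% and 92.6%. H3K27ac at the start was present in 36.7% in the control and 34.7% in the mutant, and at 2.5 kb upstream in 22.2% and 33.7%. At 10 kb downstream it was 22.9% and 23.2%. The 781 retained domains oriented in the same way had H3K27ac at 83.0% of starts in the control and 56.3% in the mutant.

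**Figure D4:**
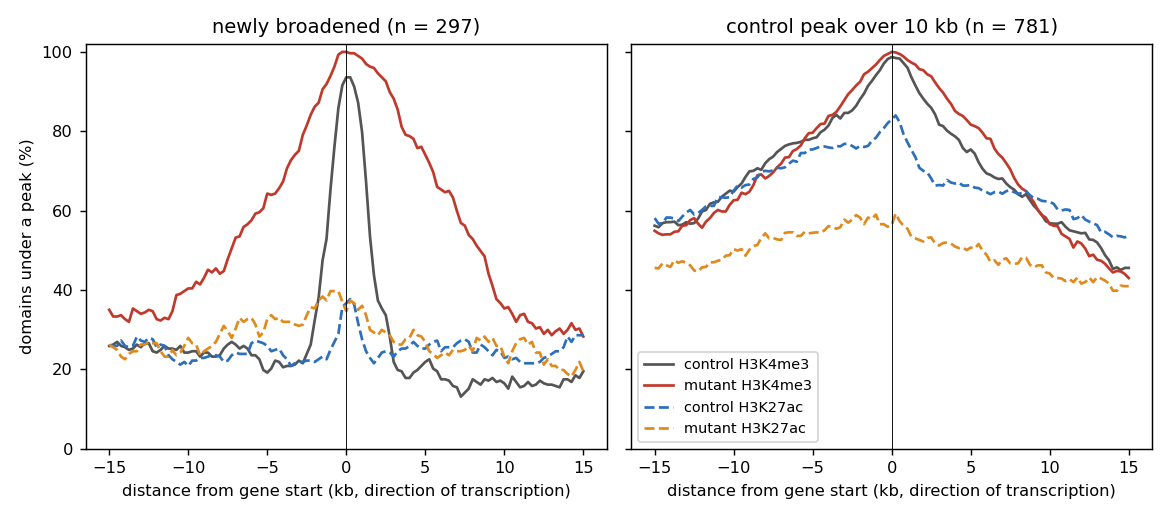
Share of domains under a peak of each list (y axis, percent) by distance from the gene start in kb along transcription (x axis), for 297 newly broadened domains (left) and 781 with a control peak over 10 kb (right). On the left, control H3K4me3 drops from 93.6% at the start to 33.7% at 2.5 kb downstream, while mutant H3K4me3 is at 92.6% there. This contrast follows from the widths that chose the domains.

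Genes were then grouped in lists by function. Of 489 listed autosomal genes in 13 lists, 23 (4.70%) lay at one, against 3.33% of all protein-coding genes. At retained broad domains the listed genes numbered 119 (24.3%). None of 31 listed 2-cell genes and none of 29 translation genes lay at a newly broadened domain. The splicing and transcription list had 1 of 61 and the ribosome biogenesis list 1 of 53, where retained broad domains held 17 of each list. At 3.33% of all genes, lists of this size would hold few genes, so these low counts are near the share of all genes.

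Among enzymes of H3K4 methylation, 3 of 21 were found. Kmt2a, an MLL methyltransferase, had a domain of 12012 bp with control peaks of 584 and 2777 bp, and H3K27ac covered 6.22% of it in the control and 10.4% in the mutant. Kmt2b had 0% and 77.4%. Ash2l, a shared core subunit of these complexes, was placed by a gene end at a domain of 11765 bp, also at Kcnu1, with 5.49% and 41.1%. H3K27ac was thus longer in the mutant list at the 3 genes, by at least 2-fold at Kmt2b and Ash2l, a direction found in 55.3% of all newly broadened domains.

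Of other chromatin lists, 1 of 38 deacetylase and corepressor genes was found, Mbd2, a reader of methylated DNA in the NuRD complex, with H3K27ac over 0% in the control and 12.5% in the mutant. In the Polycomb and heterochromatin list, Phc2, a subunit of Polycomb repressive complex 1, had 12.0% and 77.6%. Mbd2 and Kmt2b were placed by gene ends.

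Genes of pluripotency and the first lineages had 3 of 39. Sox2, a transcription factor of the inner cell mass, had a domain of 23728 bp at chr3:34634415-34658142 with 4 control peaks of 1229 to 3129 bp. H3K27ac covered 0 bp of it in the control and 8119 bp in the mutant. Gata2, a transcription factor of trophoblast and blood, had 0% and 26.2% of 10430 bp, and Fgfr2, a fibroblast growth factor receptor, had 0% and 13.04% of 10001 bp. The 3 domains had H3K27ac in the mutant list alone, as did 22.1% of all newly broadened domains.

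Later developmental regulators had 4 of 55 and H3K27ac over less than 10% of each domain. It was 9.39% in the control and 0% in the mutant at T (brachyury), 8.36% and 2.57% at Pax9, 5.28% and 1.51% at Hoxa3, and 5.05% and 0% at Neurog1. The 4 domains, 10183 to 13269 bp wide, had little H3K27ac in either list. The length was shorter in the mutant by 2-fold or more at T and Neurog1 and by less than 2-fold at Pax9 and Hoxa3, with 500 bp added to each length. Of all newly broadened domains, 36.3% were shorter by any amount. The differentiated-tissue list had 2 of 35: Gad1, the enzyme of GABA synthesis, with 0% and 27.8%, and Sst, the hormone somatostatin, with 1.93% and 0%.

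Oocyte and maternal genes had 3 of 33. Nobox, a homeobox factor of oocytes, had a domain of 10313 bp with 0% in the control and 93.8% in the mutant. Zbed3, a maternal factor, had 7.74% and 46.8% of 13636 bp. Astl, the egg protease that cleaves the zona pellucida, shared a domain with Dusp2, with 28.7% and 0%. The 2 members of 39 cell cycle and p53 genes were Ccng1, with 29.96% and 47.3%, and Sesn1, with 1.03% and 0%, both p53 targets. Gtf2b, the general factor TFIIB, had 1 control peak of 4702 bp in a domain of 19187 bp, and H3K27ac over 44.98% and 32.4%. Rrp1, a factor of ribosomal RNA processing, had 64.3% and 47.4% of 10298 bp.

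**Figure D5:**
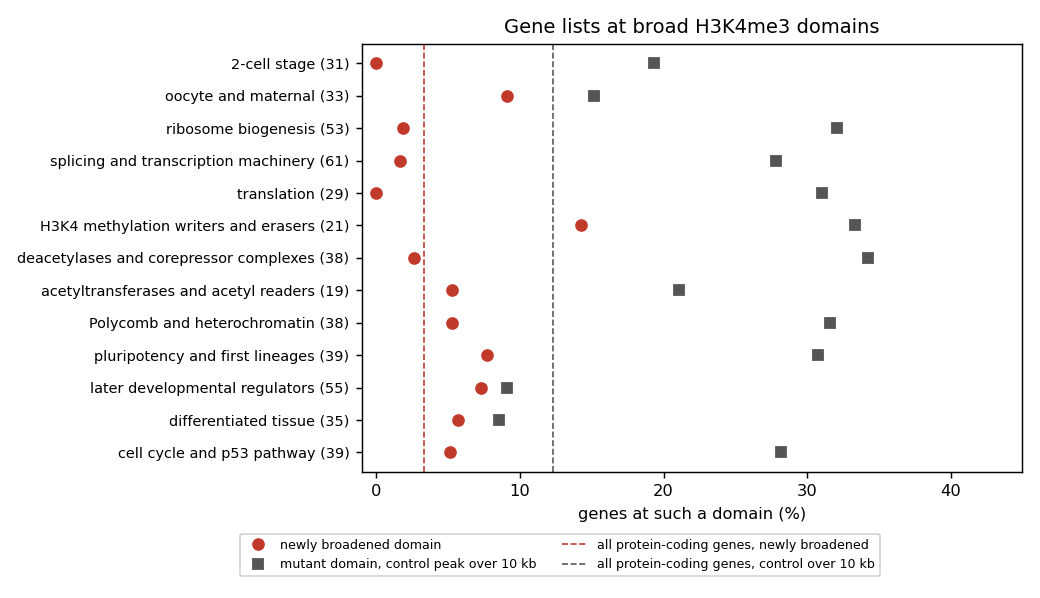
Share of the autosomal genes of each list (number in brackets) at newly broadened domains (red circles) and at retained broad domains (grey squares), in percent, with dashed lines for all protein-coding genes (3.33% and 12.3%). The retained share is the higher in each of the 13 lists, and the newly broadened share is 0% for the 2-cell and translation lists.

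The domains were spread over the autosomes. Chromosome 11 held the most, 115, or 18.1% of its 637 broad mutant domains, against 19.5% over all autosomes. The share of broad mutant domains that were newly broadened ranged from 15.2% on chromosome 8 to 26.9% on chromosome 13. The nearest control peak wider than 10 kb was a median of 90327 bp away and lay within 10 kb of 105 domains (9.79%). Another newly broadened domain lay within 10 kb of 67 (6.24%). Most of the domains thus lay more than 10 kb from a control broad domain and from one another. By the choice, none could overlap a control peak wider than 5000 bp. Distances of other broad domains are not given here, so no comparison was made.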

How the data were processed

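Libraries were mapped to groups by their titles. Per the submitters' processing notes, Bowtie2, CASAVA, MACS2, Picard, SAMtools, Trimmomatic and deepTools were used with mm10 (GRCm38). Their roles, the calling threshold and whether replicates were pooled are not given in the sources used here. Each deposited list gives the chromosome, start and end of peaks as called by the authors, with no score, so depth and peak strength are unknown. Smallest widths differ between lists (149 to 182 bp), so the lists may have been called with different limits. The limits on width and joining are not given in the sources used here, and can change whether neighbouring peaks appear as 1 domain.

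From these positions, widths, overlaps (1 bp) and covered lengths were computed with python 3.11.15, pandas 2.3.3, numpy 2.4.6 and scipy 1.17.1, and drawn with matplotlib 3.10.9. Overlap and length code was tested on simulated data. Gene starts and promoters were taken from RefSeq tables of GRCm38.p6. Of 20665 autosomal protein-coding genes, 16457 had a listed start, and the others were placed by either end. The listed starts are not all starts of a gene. No genome sequence was used, so exons, introns and the base composition of whole domains were not computed.

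The domains, the gene lists and the rules were chosen with earlier results of these data known. Named domains are the 10 widest, the 5 with the most and the 5 with the least control H3K4me3, the 5 with the largest H3K27ac gain and the 5 with the largest loss of covered length, the 3 nearest each width limit, and those at listed genes, of which some are not reported here. Alternatives varied both width limits, the overlap, the H3K27ac minimum, the length added (200 or 1000 bp in place of 500), the gene window, merging of peaks under 1000 bp apart, and common limits on gap (750 bp) and width (200 bp) for the 4 lists. With 1 list per group, no test between conditions was made.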

Additional observations from a re-analysis of the deposited data

How the results depend on the processing

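The number of newly broadened domains depended on the width limits. It was 2098 with a mutant limit of 8000 bp, 196 with 15000 bp, 398 with a control limit of 3000 bp and 2002 with 7500 bp. The opposite change numbered 53 with 15000 bp and 129 with 3000 bp. Merging peaks less than 1000 bp apart gave 1180 domains, which held 769 of the 1073 (71.7%). With merged peaks the median control H3K4me3 cover was 29.5%, the share of domains with H3K27ac in the control was 64.5%, the median H3K27ac cover was 9.15% in the control and 26.9% in the mutant, and 39.2% of domains had 2-fold more. Common limits on gap and width kept 975 of the 1073 (90.9%). Requiring 500 bp of H3K27ac gave shares of 64.4% in the control and 77.9% in the mutant. Adding 1000 bp to the lengths gave 32.0% with 2-fold more and 14.7% with 2-fold less. A gene window of 5000 bp placed 55.9% of domains at a gene. Counting the outer 5′ end of each gene as a start, an alternative chosen after seeing the data, added 8 domains at a gene (52.9%). Over all alternatives, 16 values moved, as given here, and 19 stayed within 1.5 times the count or within the counting interval. The cause of these movements was not tested. No paired analysis was possible because both libraries of a group share 1 list, and for the same reason no replicate could be left out. Depth is unknown, so peaks missing from a list cannot be told apart from peaks below its calling limit.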

Other observations

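Of 919 autosomal miRNA hairpins listed by RefSeq, 11 (1.20%) lay in newly broadened domains. Mir34a, a p53 target, lay in a domain of 10564 bp whose widest control peak was 4241 bp, with H3K27ac over 0 bp in the control and 165 bp in the mutant. Mir92b lay in a domain of 13248 bp at Muc1, with 0 and 2939 bp, and Mir193a in a domain of 12100 bp covered for 81.4% by control peaks, with 1637 and 718 bp. Mir1897 lay in the Sox2 domain and Mir3569 in that of Kmt2b and Zbtb32. Of the 11 domains, none was chosen for its miRNA, and miRNA levels were not measured.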
